A study of Mus musculus with 2 samples.

Results

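Nfe2l2, the gene for the transcription factor Nrf2, and 9 genes of its antioxidant pathway were described in cells from mouse melanomas. The members were chosen by symbol as Nfe2l2, Keap1, Slc7a11, Hmox1, Gclm, Gclc, Txnrd1, Srxn1, Nqo1 and Prdx1. All 10 were found among the 14654 genes of the raw count table. Each member was followed through macrophages and their states, dendritic cells (DC), lymphoid cells and CD45- cells, and between WT and Siah2-/- hosts. The rule takes the genes by name and uses no measured value, but the list was chosen with earlier results of these data known.

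Both groups were male C57BL/6 mice aged 8 weeks that carried a subcutaneous YUMMER1.7 tumor for 11 days. YUMMER1.7 is a BRAF-mutant mouse melanoma line with many somatic mutations. Hosts were wild type in the WT group and lacked Siah2, which encodes a RING finger ubiquitin ligase, in the Siah2-/- group. The tumor cells were the same line in both groups, so the genotype refers to host cells. Live CD45+ cells were sorted from the pooled tumors of each genotype, and a smaller number of CD45- cells was added to them. Each genotype gave 1 droplet library with 3′ end counting, so genotype, tumor pool, cell suspension, library and sequencing lane cannot be told apart and no test between genotypes exists.

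The analysed cells were 4512 from WT and 5563 from Siah2-/-. The median cell held 11434.5 unique molecular identifiers (UMIs) in WT and 8699 in Siah2-/-. Transcripts of Siah2 itself were found in WT (660 UMIs) and in Siah2-/- (505 UMIs), or 10.2 and 8.55 per 1000000 UMIs (CPM). Because 3′ end counting can read a transcript outside a deleted part, this count does not check the labels. Of the cell barcodes, 34 occurred in both libraries, and 34 would be shared by chance.

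Nrf2 is made continuously and destroyed continuously. Keap1 holds it and presents it to a Cul3 ubiquitin ligase. Oxidants and electrophiles alter Keap1, Nrf2 then escapes, enters the nucleus, pairs with a small Maf protein and binds antioxidant response elements in its target genes. The targets import cystine, make and recycle glutathione, reduce thioredoxin and peroxiredoxins, and break down heme. In macrophages this program is known as a defence against the oxidants that the cells themselves release. Because Nrf2 is controlled mainly by degradation of the protein, the level of its transcript is not a measure of its activity.

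Cells were put into classes by the mean level of marker genes. Macrophages were 1964 WT and 2305 Siah2-/- cells, DC 58 and 88, lymphoid cells 1068 and 2331, and CD45- cells 668 and 108. The CD45- class had fibroblast markers and no UMI of Ptprc, which encodes CD45. Its summed tumor markers had a mean of 2.32 UMIs per 10000 in WT and 1.86 in Siah2-/-, against 0.117 and 0.118 in macrophages. Tumor cells do not carry the host genotype, and their part in this class and its ratios was not tested. Barcodes with markers of several lineages stayed out, among them 359 WT and 399 Siah2-/- barcodes that had T cell and macrophage markers together. Macrophages were divided by their highest state score, and the states described here were Mgl2 and MHC class II (585 WT and 423 Siah2-/- cells), resident-like (281 and 59), interferon-induced (280 and 273), monocyte-like (191 and 418), cycling (195 and 95) and mixed cells (368 and 474). These are ranges along scores and not separate types. The share of cells close to a limit was 7.54% of WT and 12.5% of Siah2-/- macrophages, 5.06% and 6.61% of lymphoid cells, 11.8% and 7.41% of CD45- cells, 36.2% and 38.6% of DC, and from 25.1% to 75.7% within the 5 named states. In macrophages the T cell, NK, DC and fibroblast marker lists each had a median of 0 UMIs in both libraries. Their means per 10000 UMIs were 0.229 in WT and 0.601 in Siah2-/- for T cell, 0.121 and 0.2498 for NK, 0.276 and 0.280 for DC and 0.211 and 0.180 for fibroblast markers, and 0.377 and 0.709 for neutrophil markers. The part of these markers in the macrophage ratios was not tested.

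The element bound by Nrf2 was looked up in the promoters as background for the list. RefSeq promoter windows of GRCm38.p6, from 250 bases before to 50 bases after each annotated start, matched 8 of the 10 members, and Hmox1 and Gclc were not matched. The core TGACNNNGC was searched on both strands. It occurred in windows of 5 of these 8 genes, against 12.4% of all 32851 windows and 14.0% of the 27025 genes with a window. Of the other pathway genes described below, 10 of 41 with a window held it. The stretches of Gclm, Nfe2l2, Prdx1 and Txnrd1 are shown because they carry the core upstream of an annotated start. Txnrd1 has 3 windows, and its stretch lies upstream of a start inside the gene. That of Mgst1 is shown because Mgst1 differed between the libraries in macrophages. All are written 5′ to 3′ along the gene with the core in capitals.
Gclm, chr3:122245398-122245456, plus strand: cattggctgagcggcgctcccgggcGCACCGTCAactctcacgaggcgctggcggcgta
Nfe2l2, chr2:75704870-75704913, minus strand: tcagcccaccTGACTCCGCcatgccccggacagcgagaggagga
Prdx1, chr4:116685441-116685499, plus strand: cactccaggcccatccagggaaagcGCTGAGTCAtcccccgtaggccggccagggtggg
Txnrd1, chr10:82859089-82859147, plus strand: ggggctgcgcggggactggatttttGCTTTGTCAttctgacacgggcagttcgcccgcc
Mgst1, chr6:138140446-138140504, plus strand: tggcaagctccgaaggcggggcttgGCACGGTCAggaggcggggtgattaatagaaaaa
In Gclm, Prdx1, Txnrd1 and Mgst1 the core lies on the strand opposite to the gene, which is why it reads in reverse complement. The windows of Keap1, Slc7a11 and Nqo1 held no match, which says only that these letters are not in this window. A match is a description and not a binding site.

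Levels are UMIs of a gene per 1000000 UMIs of the class in that library (CPM), with exact Poisson intervals of 95%. All intervals cover counting error only, since there is 1 library per genotype. Levels of different genes were not compared. The spread between libraries of the same genotype could not be measured. Levels in droplets with at most 100 UMIs, which hold free RNA, are given where they matter.

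Nfe2l2 (ENSMUSG00000015839, chromosome 2, 75675513 to 75704641, minus strand, GRCm38) was higher in macrophages, DC and CD45- cells than in lymphoid cells of both libraries. Macrophages held 212 CPM in WT (95% interval 206 to 218) and 164 in Siah2-/- (158 to 169). CD45- cells held 152 and 183, DC 101 and 187, and lymphoid cells 24.1 and 23.9 CPM. Macrophages exceeded lymphoid cells 8.77-fold in WT and 6.83-fold in Siah2-/-, and the order of macrophages, CD45- cells and DC was not the same in the libraries. In macrophages the log2 ratio of Siah2-/- over WT was -0.37 (-0.44 to -0.31). In interferon-induced cells the levels were 223 and 149 CPM, with a log2 ratio of -0.59 (-0.77 to -0.41). The other states described here lay from -0.38 to -0.19, and the interval of the resident-like state (-0.44 to 0.06) included 0. That value turned to 0.20 with thinned cells and to 0.03 with a stricter gate. In DC the ratio had the other sign, with 64 UMIs in 58 WT cells and 148 in 88 Siah2-/- cells, a log2 ratio of 0.89 (0.46 to 1.34). In CD45- cells it was 0.27 (0.13 to 0.41).

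Keap1 (ENSMUSG00000003308, chromosome 9, 21229730 to 21239361, minus strand), the adaptor that marks Nrf2 for destruction, was found in all 4 classes at similar levels. Its level ran from 50.0 to 64.9 CPM over the 4 classes in WT and from 51.8 to 60.9 in Siah2-/-. Within macrophages it was highest in the interferon-induced state of both libraries, at 100.5 and 89.7 CPM. The intervals there, 89.5 to 113 and 78.9 to 102, lay above those of the other states described here in the same library. The nearest were resident-like cells in WT (69.3 to 87.5) and cycling cells in Siah2-/- (52.7 to 77.0). Between the libraries the macrophage level was 64.9 in WT and 53.4 in Siah2-/-, a log2 ratio of -0.28 (-0.39 to -0.17). In lymphoid and CD45- cells the intervals of the ratio included 0.

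**Figure D1:**
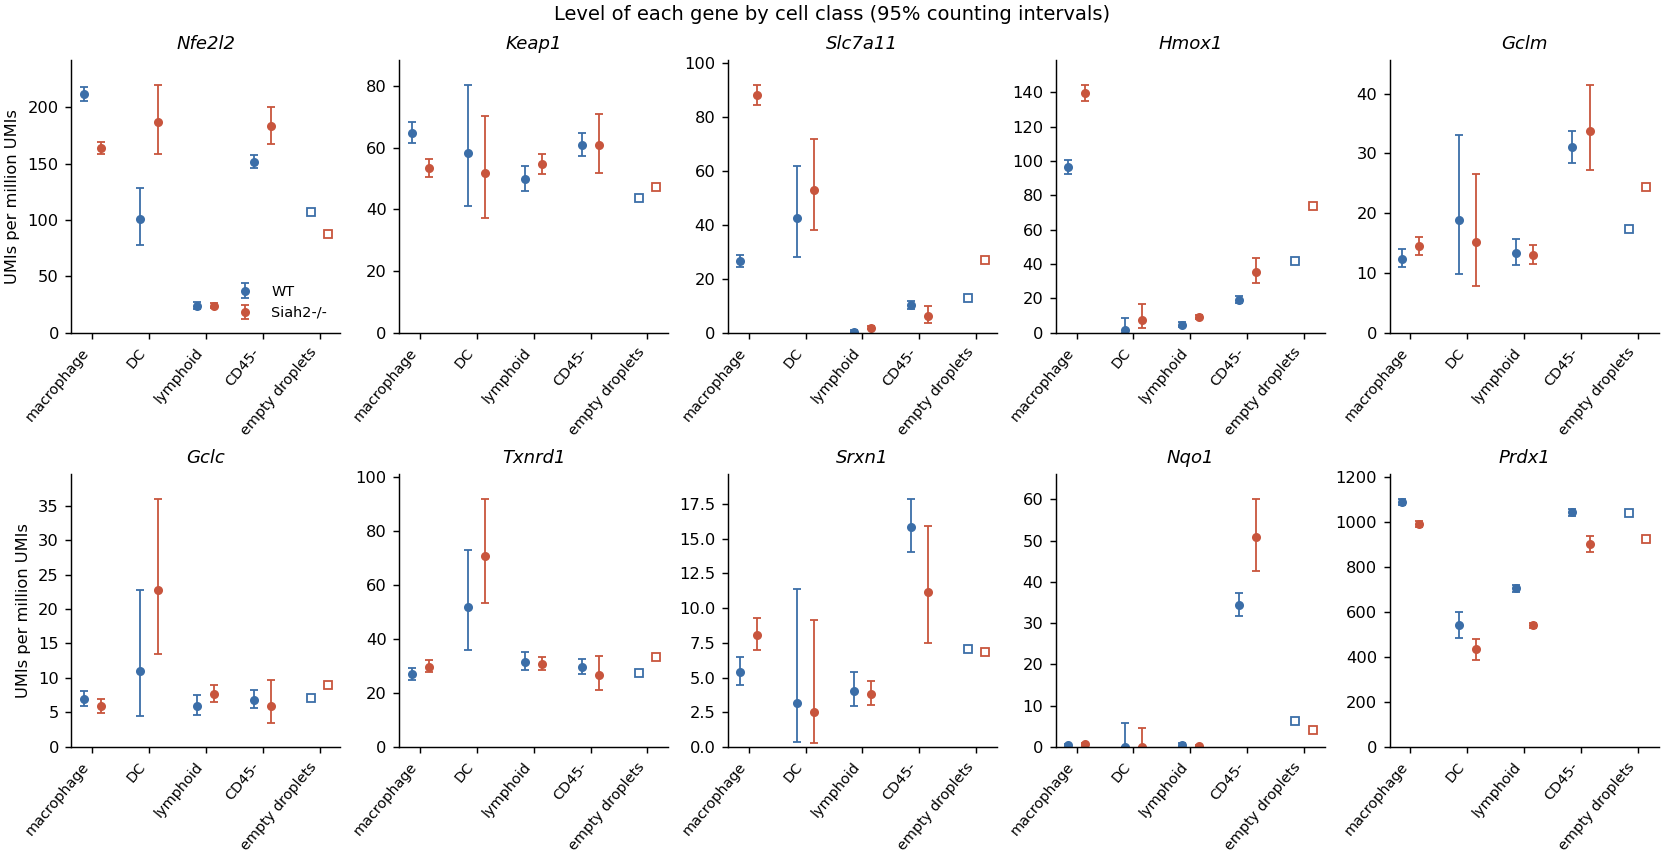
Level of each gene (y axis, CPM, linear from 0) in macrophages, DC, lymphoid cells and CD45- cells (x axis), for WT in blue and Siah2-/- in red. Bars are exact Poisson intervals of 95%, and open squares are the level in empty droplets. Slc7a11 and Hmox1 are low in lymphoid cells, and Nqo1 is high in CD45- cells alone among the 4 classes.

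Slc7a11 (ENSMUSG00000027737, chromosome 3, 49892526 to 50443614, minus strand) encodes xCT, the transporter subunit that brings cystine into the cell in exchange for glutamate. It showed the widest gap between the libraries among the 10 members in macrophages. WT macrophages held 597 UMIs and Siah2-/- macrophages 2097, or 26.7 (24.6 to 28.9) and 88.0 (84.3 to 91.9) CPM. The log2 ratio was 1.72 (1.59 to 1.86), a 3.30-fold higher level in Siah2-/-. After thinning each cell to 4500 UMIs, 9.62% of WT macrophages (8.35% to 11.0%) and 21.9% of Siah2-/- macrophages (20.2% to 23.7%) had a UMI. Without thinning the shares were 15.6% and 33.0%, where the median depth was 10103 and 9054 UMIs. In lymphoid cells, thinned in the same way, 0 of 1068 WT cells had a UMI, which allows a share of up to 0.281% of cells with a UMI at that depth, and 0.601% of Siah2-/- cells did. Without thinning, 0.468% of WT and 1.20% of Siah2-/- lymphoid cells had one.

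The level differed between the states of macrophages in both libraries. Resident-like cells, which carry Folr2 and Fcrls, held 5.90 CPM in WT and 19.5 in Siah2-/-. Monocyte-like cells held 43.4 and 78.4, which is 7.36-fold and 4.03-fold the resident-like level. Of the 7840 genes compared between these states, 4.91% were at least 2-fold higher in monocyte-like cells in both libraries and 6.02% were lower. Of the 8 members that could be compared, 1 was higher by that rule, Slc7a11, and 0 were lower.

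In 5 of the 6 groups of macrophages the interval of the ratio between libraries lay above 0. The log2 ratio of Siah2-/- over WT was 0.98 (0.73 to 1.23) in Mgl2 and MHC class II, 1.72 (0.74 to 2.69) in resident-like and 1.51 (1.08 to 1.95) in interferon-induced cells. It was 0.85 (0.46 to 1.26) in monocyte-like and 1.58 (1.28 to 1.89) in mixed cells. In cycling cells it was 0.45, with an interval from -0.14 to 1.03 that included 0. There, 1 Siah2-/- cell held 45.7% of the UMIs, and the ratio without the top cell of each library was -0.12. With a stricter gate the ratio was 0.24 in the Mgl2 and MHC class II state, where 75.7% of Siah2-/- cells lay near a limit. Since the libraries differed in the shares of the states, the levels were also averaged with the same state weights in both libraries, which gave a log2 ratio of 1.25. Other values that differed between the libraries were the summed macrophage markers, with a median of 138 UMIs per 10000 in WT and 84.6 in Siah2-/-, and the summed monocyte markers, with 9.67 and 25.04. Their part in the Slc7a11 ratio beyond the state weights was not tested.

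**Figure D2:**
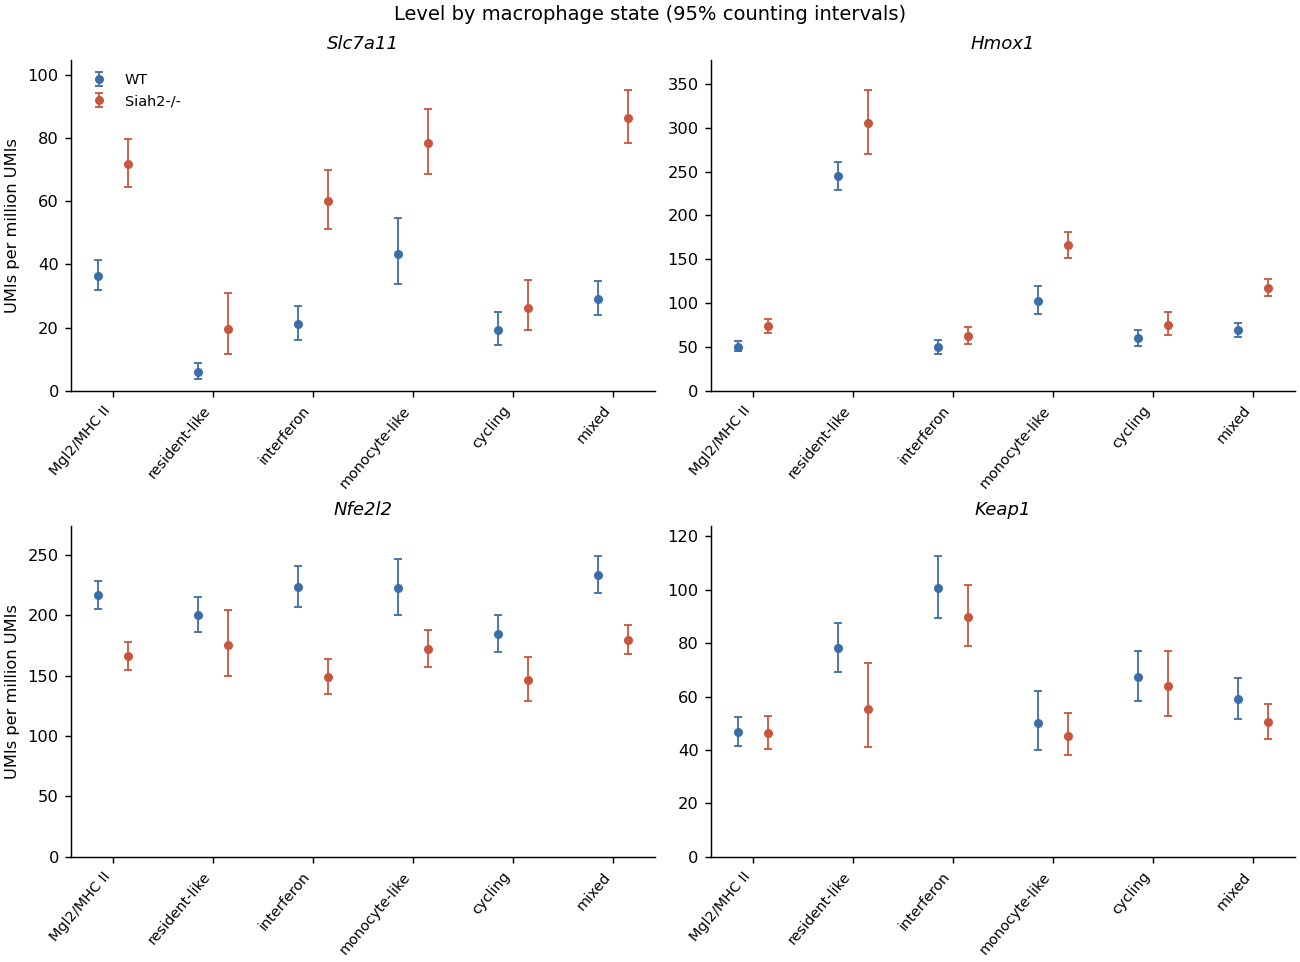
Level of Slc7a11, Hmox1, Nfe2l2 and Keap1 (y axis, CPM, linear from 0) in 5 macrophage states and in mixed cells (x axis), for WT in blue and Siah2-/- in red, with exact Poisson intervals of 95%. Slc7a11 lies higher in Siah2-/- in all 6 groups, with overlapping intervals in cycling cells. Nfe2l2 lies lower in Siah2-/-, with overlapping intervals in resident-like cells.

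Outside macrophages Slc7a11 was measured in DC at 42.6 CPM in WT (28.0 to 61.9) and 53.1 in Siah2-/- (38.3 to 71.8), with a log2 ratio of 0.32 (-0.41 to 1.07). CD45- cells held 10.1 and 6.31 CPM. Lymphoid cells held 5 UMIs in WT and 40 in Siah2-/-, or 0.438 and 1.92 CPM, so the macrophage level was 60.9-fold and 45.9-fold the lymphoid one. Empty droplets held 12.9 CPM in WT and 27.1 in Siah2-/-. The amount of free RNA in lymphoid cells was bounded from C1qa, a macrophage gene, at 3.14% of the UMIs in WT and 4.81% in Siah2-/-. That amount would carry 0.405 and 1.30 CPM of Slc7a11, which left 0.0324 and 0.614. The lymphoid values are therefore near the level of free RNA, and the log2 ratio of 2.13 (0.79 to 3.83) between them is not read as a difference in lymphoid expression. With free RNA subtracted that ratio moved to 4.25, a value that rests on the 0.0324 CPM left in WT. The same bound in macrophages, from Gzmb, was 0.464 and 1.29 CPM.

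Hmox1 (ENSMUSG00000005413, chromosome 8, 75093621 to 75100589, plus strand) encodes heme oxygenase 1, which breaks heme into biliverdin, iron and carbon monoxide. It was a macrophage transcript, at 96.5 CPM in WT macrophages (92.5 to 101) and 139.6 in Siah2-/- macrophages (134.9 to 144). Macrophages exceeded lymphoid cells 20.8-fold and 15.3-fold. DC held 1 UMI in WT and 6 in Siah2-/-, which is 1.58 and 7.59 CPM, and the bound for free RNA there was 1.24 and 4.23. CD45- cells held 19.2 and 35.6 CPM, a log2 ratio of 0.89 (0.55 to 1.22), and empty droplets 42.0 and 73.6.

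Resident-like macrophages held the highest level of Hmox1 among the states described here, with 245 CPM in WT (229 to 261) and 305 in Siah2-/- (271 to 343). Monocyte-like cells followed with 103 and 166, and the interferon-induced and the Mgl2 and MHC class II states ran from 49.4 to 73.7. Resident-like cells were thus high in Hmox1 and low in Slc7a11.

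A few cells held much of the Hmox1 signal. In WT, 1 resident-like cell had 270 of the 913 UMIs of that state, or 29.6%, and 12.5% of all Hmox1 UMIs in WT macrophages. In Siah2-/-, 1 resident-like cell had 113 of 282. The log2 ratio of Siah2-/- over WT in all macrophages was 0.53 (0.45 to 0.61), and 0.67 without the top cell of each library. In the states described here it ran from 0.32 (0.12 to 0.51) in resident-like cells to 0.77 (0.56 to 0.98) in mixed cells, and the interval of cycling cells included 0. The resident-like value was 0.09 without the top cell of each library and 0.88 with thinned cells, so its size is not settled. With a stricter gate the ratio was -0.10 in Mgl2 and MHC class II and -0.11 in monocyte-like cells. The direction within both states was therefore not the same under both gates. In the thinned cells, 25.5% of WT and 31.4% of Siah2-/- macrophages had a UMI of Hmox1, against 1.31% and 3.17% of lymphoid cells.

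**Figure D3:**
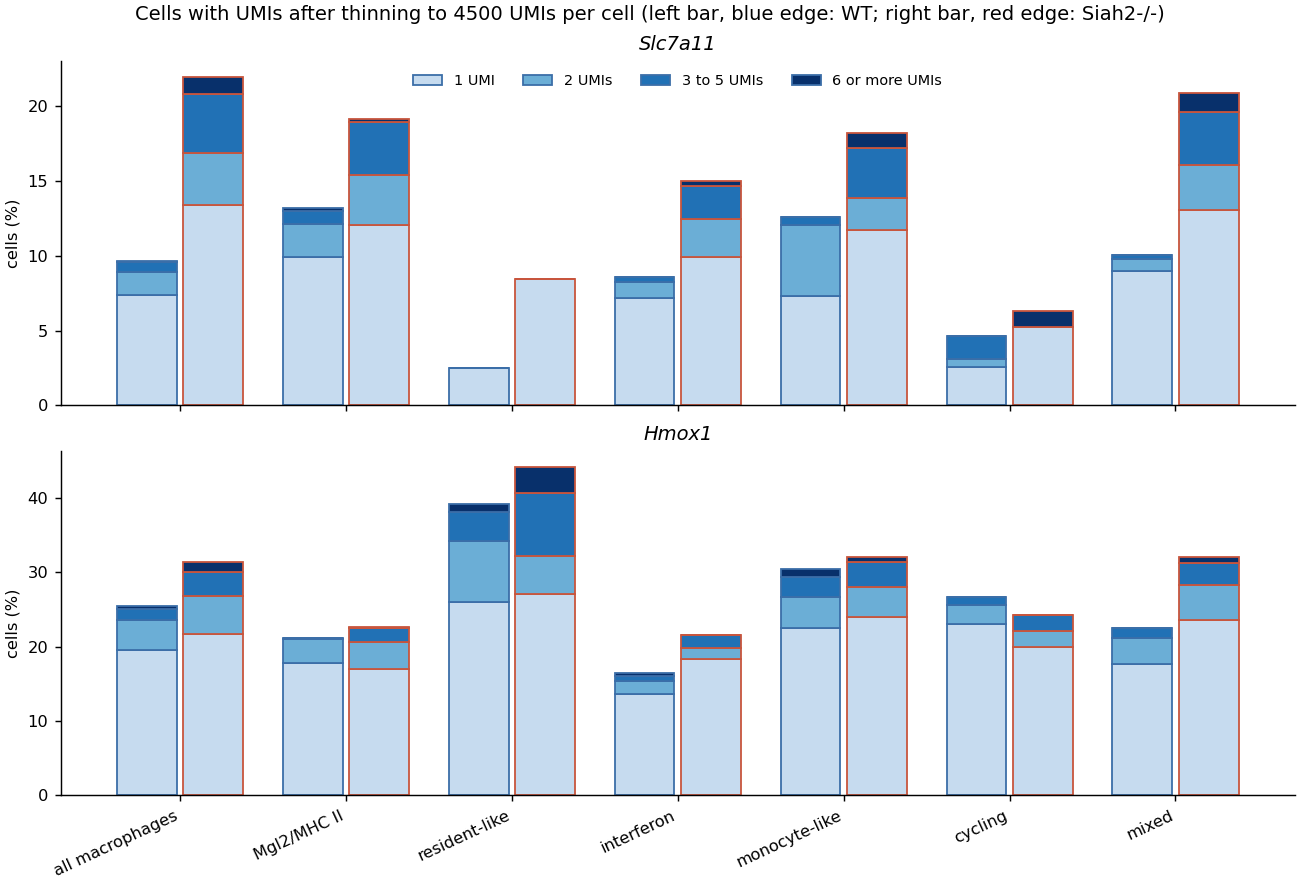
Percent of macrophages (y axis, from 0) with 1, 2, 3 to 5 or at least 6 UMIs of Slc7a11 (top) and Hmox1 (bottom) after thinning to 4500 UMIs per cell, for all macrophages, 5 states and mixed cells. In each pair the left bar is WT and the right bar is Siah2-/-. Cells with at least 6 UMIs of Slc7a11 made up 0.051% of WT and 1.085% of Siah2-/- macrophages.

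Each gene was found in part of the macrophages, and detection of one went with little difference in detection of the other. The 231 of 2305 Siah2-/- macrophages with most Slc7a11 held 72.6% of its thinned UMIs, and the 231 with most Hmox1 held 69.2%. Among Siah2-/- macrophages with a UMI of Slc7a11, 34.1% also had one of Hmox1 (29.9% to 38.4%). Among those without, 30.6% did (28.5% to 32.8%). In WT the shares were 26.5% and 25.4%, and no difference in Hmox1 was detectable at this depth. A UMI of Nfe2l2 was found in 52.3% of Siah2-/- macrophages with Slc7a11 and in 44.7% of those without, and in 66.7% and 58.1% of WT macrophages.

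Gclm and Gclc encode the modifier and the catalytic subunit of glutamate cysteine ligase, the first step of glutathione synthesis. Gclm (ENSMUSG00000028124, chromosome 3, 122245557 to 122270732, plus strand) was highest in CD45- cells, at 31.1 CPM in WT (28.5 to 33.8) and 33.8 in Siah2-/- (27.2 to 41.5). Macrophages held 12.4 and 14.5, and lymphoid cells 13.4 and 13.1. The CD45- level was 2.50-fold and 2.33-fold that of macrophages. Gclc (ENSMUSG00000032350, chromosome 9, 77754535 to 77794485, plus strand) lay between 5.88 and 7.63 CPM in macrophages, lymphoid cells and CD45- cells of both libraries. In DC it was counted 7 and 18 times, or 11.0 and 22.8 CPM, with intervals from 4.44 to 22.7 and from 13.5 to 36.0. In macrophages the log2 ratio of Siah2-/- over WT was 0.22 (-0.01 to 0.46) for Gclm and -0.25 (-0.58 to 0.09) for Gclc, and both intervals included 0.

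Txnrd1 (ENSMUSG00000020250, chromosome 10, 82833951 to 82897712, plus strand) encodes cytosolic thioredoxin reductase. Its level was 27.0 and 29.8 CPM in macrophages, 31.6 and 30.7 in lymphoid cells and 29.7 and 26.7 in CD45- cells, and these intervals overlapped between classes within each library. DC held more, at 52.0 (35.8 to 73.0) in WT and 70.8 (53.5 to 91.9) in Siah2-/-. Srxn1 (ENSMUSG00000032802, chromosome 2, 152105516 to 152111376, plus strand) encodes sulfiredoxin, which repairs overoxidized peroxiredoxins. It was sparse, with 121 UMIs in WT macrophages and 192 in Siah2-/- macrophages, or 5.40 and 8.06 CPM, a log2 ratio of 0.58 (0.24 to 0.92). CD45- cells held 15.9 and 11.1 CPM of it.

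Prdx1 (ENSMUSG00000028691, chromosome 4, 116685544 to 116700822, plus strand) encodes a peroxiredoxin that reduces hydrogen peroxide with electrons from thioredoxin. It was found in 98.2% of thinned WT macrophages and 96.5% of Siah2-/- macrophages. Its level was lower in Siah2-/- in all 4 classes, at 1090.3 and 991 CPM in macrophages, 541 and 434 in DC, 706 and 541 in lymphoid cells and 1044 and 901 in CD45- cells. The log2 ratios were -0.14, -0.32, -0.39 and -0.21, each with an interval below 0. In DC the direction turned with the gate, to 0.29 under a stricter one, and the thinned share of DC with a UMI was 74.1% in WT and 81.8% in Siah2-/-. Empty droplets went the same way, with 1042 CPM in WT and 928 in Siah2-/-.

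Nqo1 (ENSMUSG00000003849, chromosome 8, 107388225 to 107403206, minus strand) encodes a quinone reductase and is often used as a readout of Nrf2. In these cells nearly all of its UMIs within the 4 classes were in the CD45- class. CD45- cells held 582 UMIs in WT and 137 in Siah2-/-, or 34.4 (31.7 to 37.3) and 50.8 (42.7 to 60.1) CPM. Macrophages held 9 and 14 UMIs, lymphoid cells 4 and 5, and DC 0 and 0, which allows up to 4.73 and 3.79 CPM in DC. The CD45- level was 85.7-fold and 86.5-fold that of macrophages. Empty droplets held 6.25 and 4.03 CPM, more than macrophages did. A UMI of Nqo1 was found in 50.1% of WT and 63.0% of Siah2-/- CD45- cells, where the median depth was 22938 and 26156 UMIs. The log2 ratio in CD45- cells was 0.56 (0.28 to 0.83).

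Between classes, 3 of the 9 comparable members were at least 2-fold higher in macrophages than in lymphoid cells in both libraries, namely Nfe2l2, Slc7a11 and Hmox1, and 0 were lower. Of the 11457 genes compared, 15.3% were higher and 14.1% lower by that rule. Against macrophages, CD45- cells were higher in Gclm and Nqo1 and lower in Slc7a11 and Hmox1, which is 2 and 2 of 10 members beside 23.4% and 13.1% of 11282 genes. DC were lower than macrophages in Hmox1 and Prdx1, 2 of 9 members beside 10.1% of 9415 genes, and higher in 0 of 9 beside 9.3%. Against lymphoid cells, CD45- cells were higher in 6 of 10 members, namely Nfe2l2, Slc7a11, Hmox1, Gclm, Srxn1 and Nqo1, beside 23.2% of 11117 genes, and lower in 0 beside 13.6%.

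Between the libraries, 1 of 10 members in macrophages, Slc7a11, was at least 1.5-fold higher in Siah2-/- and 0 were lower. Of the 11737 genes with at least 20 UMIs over both libraries, 18.9% were past that fold in macrophages, 10.4% higher and 8.47% lower. The count moved between 1 and 4 under other settings, as given in the closing section, and nothing about the list is read from it. Srxn1, Nqo1 and Hmox1, at 1.49-fold, 1.46-fold and 1.45-fold, lay just under the limit. Intervals above 0 were found for 3 members, intervals below 0 for 3 and intervals that included 0 for 4. The median log2 ratio over the members was 0.18, against -0.04 over all genes.

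In DC, 2 of 7 members were past 1.5-fold, Nfe2l2 and Gclc, beside 28.7% of 5570 genes, with 15.7% higher and 13.0% lower. In lymphoid cells it was 2 of 9, Slc7a11 and Hmox1, beside 17.5% of 11399 genes, with 10.4% higher and 7.12% lower. Lymphoid Hmox1 was 4.64 CPM in WT and 9.12 in Siah2-/-, of which the bound for free RNA was 1.32 and 3.54, and within CD4 T cells of Siah2-/- 1 cell held 69.8% of the Hmox1 UMIs. In CD45- cells Hmox1 was higher and Slc7a11 lower, 2 of 10 members beside 22.8% of 11446 genes, with 11.3% higher and 11.6% lower. That value of Slc7a11 rested on 171 UMIs in 668 WT cells and 17 UMIs in 108 Siah2-/- cells, and the interval of its log2 ratio of -0.68 (-1.49 to 0.04) included 0. The median log2 ratio of the members was 0.32 in DC, -0.01 in lymphoid cells and -0.08 in CD45- cells, against 0.00, 0.01 and -0.00 over all genes.

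**Figure D4:**
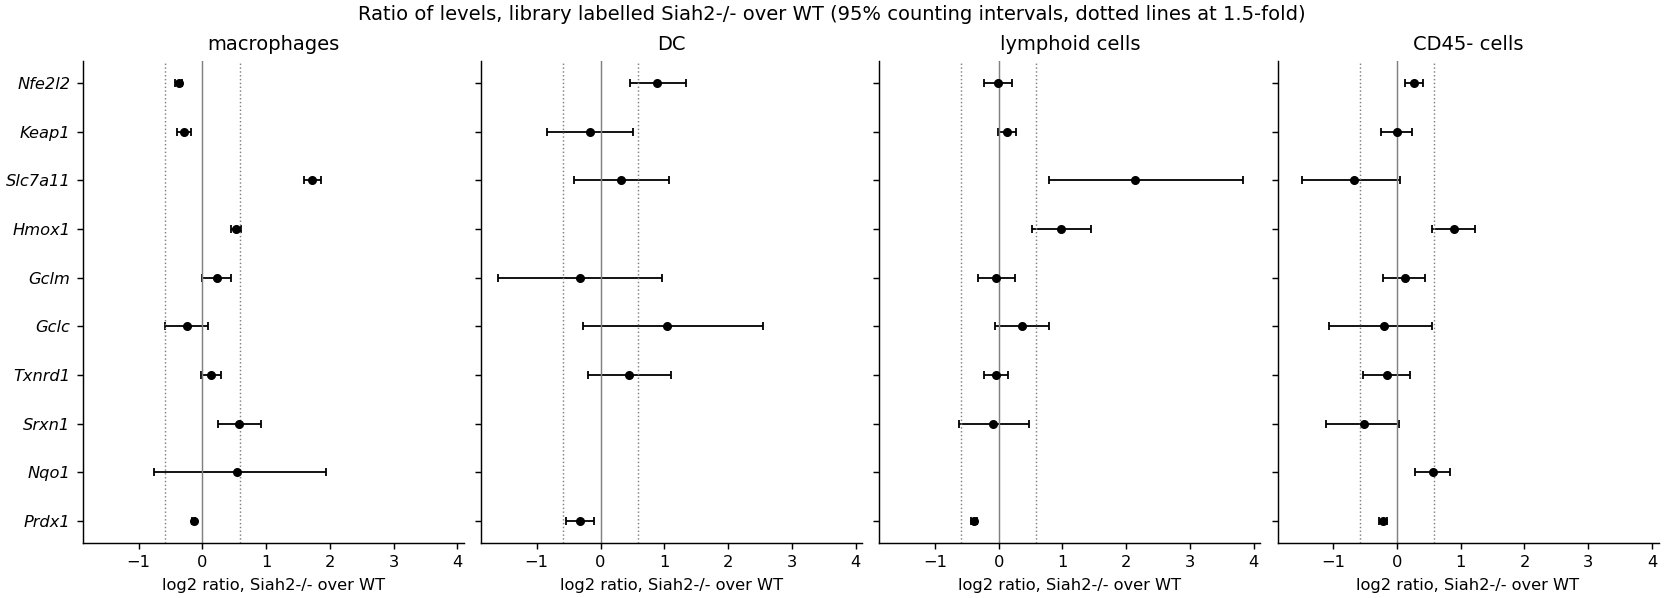
Log2 ratio of Siah2-/- over WT (x axis) for each member (y axis) with at least 20 UMIs over both libraries, in macrophages, DC, lymphoid cells and CD45- cells. Points are ratios, bars are exact intervals of 95% for counting error, and dotted lines mark 1.5-fold. In macrophages Slc7a11 lies at 1.72, apart from the other members, which lie between -0.37 and 0.58.

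A further 48 genes of the pathway, none of them a member, were described by role. In macrophages 45 had enough UMIs. By the limit of 1.5-fold, 5 were higher and 2 lower in Siah2-/-, beside 10.4% and 8.47% of all genes. Of the glutathione genes 3 of 10 were higher and 0 lower, and of the 8 regulators 1 was higher and 0 lower. Gsr, which encodes the glutathione reductase that returns oxidized glutathione to its reduced form, was at 29.2 CPM in WT and 95.2 in Siah2-/-, a log2 ratio of 1.70 (1.58 to 1.83). Mgst1, a membrane glutathione transferase whose promoter stretch is shown above, was at 49.7 and 120.0, a log2 ratio of 1.27 (1.17 to 1.37). After thinning, 57.6% of WT and 38.8% of Siah2-/- monocyte-like cells had no UMI of Mgst1. In Mgl2 and MHC class II cells 88.0% and 80.9% had none. The part of the differing shares of states in the Mgst1 ratio was not tested. Gstp1, named after its values were seen, was at 85.6 and 152, with 0.83. Prdx6, a peroxiredoxin that uses glutathione, and Maff, a small Maf partner of Nrf2, were also named after their values were seen and had log2 ratios of 0.97 and 0.60. On the lower side was Prdx4, the peroxiredoxin of the endoplasmic reticulum, at 124 and 80.1 CPM (-0.63, -0.71 to -0.54). Gsto1 followed at 94.1 and 71.8 (-0.39, -0.48 to -0.30), which lay within the limit. Slc40a1, the iron exporter ferroportin, was also named after its values were seen, at 3.48 and 1.39 (-1.33). Slc3a2, the chain that pairs with Slc7a11 in the cystine transporter, was at 318 and 331, with 0.06 (0.01 to 0.11). Genes that supply NADPH had 0 of 5 past the limit.

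Gsr had a log2 ratio close to that of Slc7a11 in all macrophages and was followed through the states. Its log2 ratio was 1.35 in Mgl2 and MHC class II, 1.39 in resident-like, 1.04 in interferon-induced, 1.29 in monocyte-like and 1.62 in mixed cells, and each of these intervals lay above 0. In cycling cells it was 0.16 (-0.48 to 0.78). Monocyte-like cells held 116 CPM of Gsr in WT and 284 in Siah2-/-, the highest among the states described here. A UMI of Gsr was found in 38.4% of Siah2-/- macrophages with Slc7a11 (34.2% to 42.8%) and in 29.9% of those without (27.8% to 32.1%). In WT the shares were 14.8% and 11.8%. Within Siah2-/- states they were 14.6% and 23.3% in interferon-induced and 57.9% and 59.1% in monocyte-like cells. They were 23.5% and 20.8% in Mgl2 and MHC class II and 35.4% and 24.8% in mixed cells. The part of the states in the difference over all macrophages was not tested. In lymphoid cells Gsr was at 40.2 and 37.2 CPM, with a log2 ratio of -0.11 (-0.28 to 0.06).

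In lymphoid cells 5 of 45 pathway genes were higher and 3 lower, beside 10.4% and 7.12% of all genes. The highest and lowest by the naming rule were Osgin1 (7.79 and 16.3 CPM, 1.07) and Txnip, the thioredoxin inhibitor (65.6 and 123, 0.91), against Gsto1 (41.7 and 23.7, -0.81) and Prdx4 (42.3 and 25.3, -0.74). The lymphoid class was made up differently in the libraries, with 15 CD4 T cells of 1068 in WT and 243 of 2331 in Siah2-/-, and with cycling markers at a mean of 7.98 and 2.89 UMIs per 10000. Within CD8 T cells the log2 ratios were 1.18 for Osgin1, 0.91 for Txnip, -0.89 for Gsto1 and -0.38 for Prdx4, and within NK cells 0.65, 1.00, -0.39 and -0.58. The part of cycling cells in these ratios was not tested. In CD45- cells 5 of 46 were higher and 2 lower, beside 11.3% and 11.6% of all genes. Mgst1 (1.06) and Gstm1 (0.91) were highest there, and Gsr (-0.45) and Txn1 (-0.35) lowest. In DC 7 of 35 were higher and 0 lower, beside 15.7% and 13.0% of all genes. The genes named by the rule, Taldo1 (-0.49), Sod2 (-0.27), Fth1 (0.28) and Slc3a2 (0.31), lay within the limit. The median over the pathway list was 0.07 in macrophages, 0.00 in DC, -0.04 in lymphoid cells and 0.02 in CD45- cells.

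**Figure D5:**
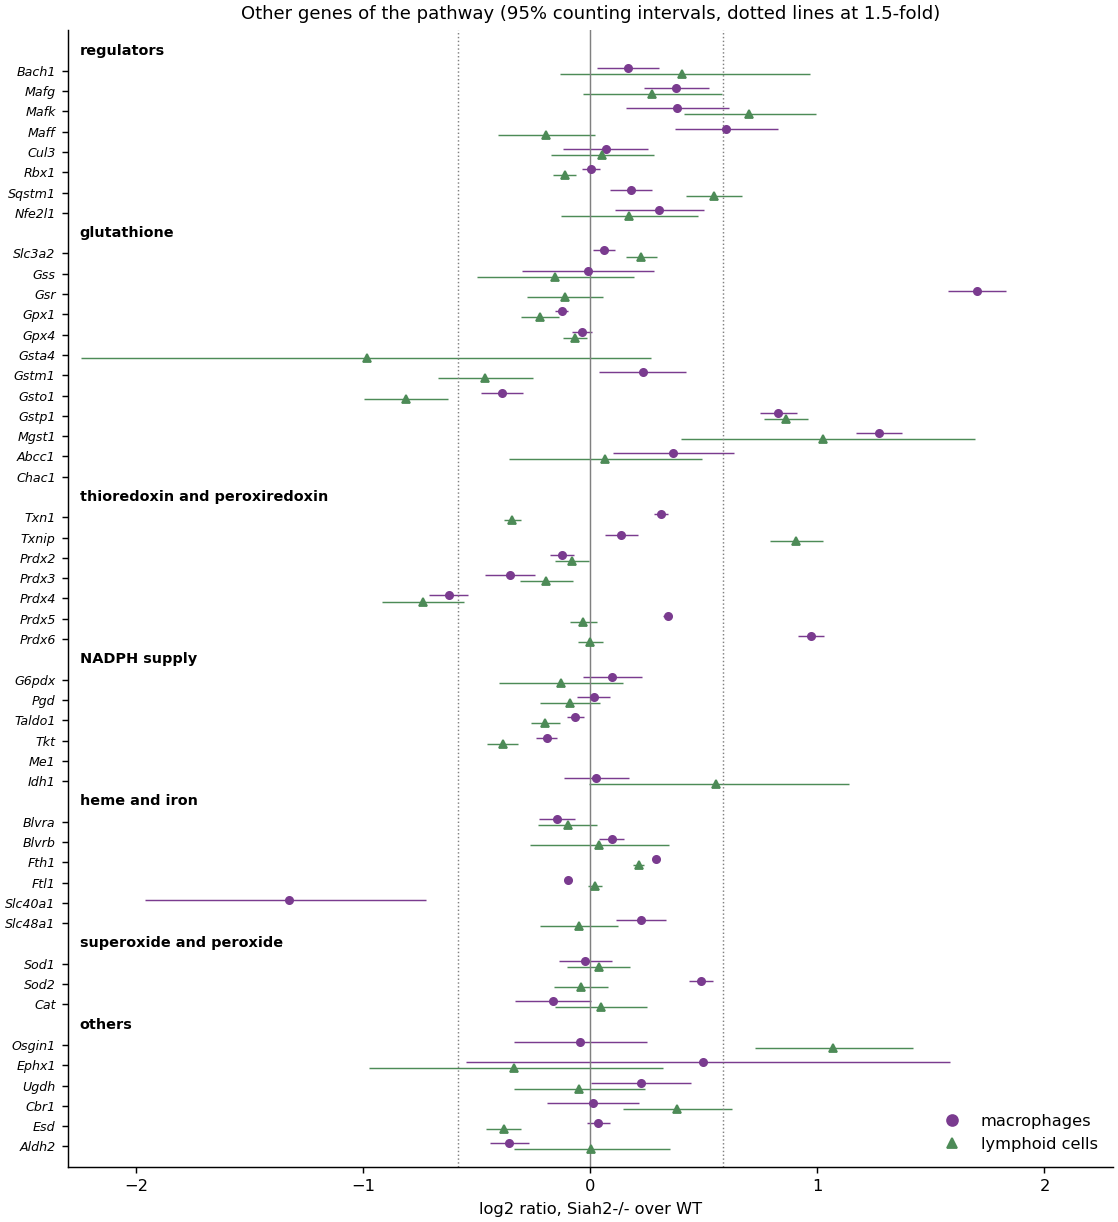
Log2 ratio of Siah2-/- over WT (x axis) for the 48 other pathway genes (y axis, grouped by role), in macrophages (purple circles) and lymphoid cells (green triangles), with exact intervals of 95% for counting error. Dotted lines mark 1.5-fold, and genes with under 20 UMIs have no point. Gsr and Mgst1 lie farthest to the right in macrophages.

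The profile of each member was compared with that of all other genes over 25 points, each 1 state or cell class of 1 library. These points share libraries, and the correlations are descriptions. The most similar genes were Pltp for Nfe2l2 (Pearson r 0.96), Ifit3b for Keap1 (0.75), Hotairm1 for Slc7a11 (0.91), Hk2 for Hmox1 (0.94), Fkbp2 for Prdx1 (0.94) and Wnt5a for Nqo1 (0.97). Among members the closest pairs were Hmox1 with Prdx1 (0.79) and Nfe2l2 with Slc7a11 (0.76). Nfe2l2 gave 0.60 with Hmox1, 0.58 with Prdx1, 0.24 with Keap1, 0.10 with Gclm, 0.02 with Gclc, 0.14 with Txnrd1, 0.11 with Srxn1 and 0.18 with Nqo1. Ifit3b belongs to the same family as marker genes that define the interferon-induced state, so its likeness to Keap1 partly restates the choice of states. Nqo1 was at 34.4 and 50.8 CPM in CD45- cells and at most 3.60 at the other points, so its likeness to Wnt5a rests mainly on that class.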

How the data were processed

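Single-cell RNA-seq of 1 WT and 1 Siah2-/- library was analysed. The authors deposited a table of raw UMI counts for 14654 genes, made with Cell Ranger (version not given in the sources used here) on mm10/GRCm38 after removal of cells with few or many genes, a table of log values, and unfiltered matrices of UMI counts. The deposited values on a natural log scale were used only for the names of their cells. The raw count table and the matrices differed in 3785 values, 0 of them in the members. All columns belonged to the 2 samples.

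The cells of the normalized table were used, with 64781513 UMIs in WT and 59080246 in Siah2-/-, and a lowest UMI count per cell of 6670 and 4896. Precision is limited by these counts and given as intervals. The members, marker lists and pathway list were chosen with earlier results of these data known. Marker scores were means of ln(1 + UMIs per 10000) with limits of 0.6 (macrophage, T, other lineages), 0.45 (DC), 0.5 (NK) and 0.35 (fibroblast). A state was the highest standardized score, above 0 and ahead of the next by 0.25, or else mixed. Near a limit means lost when limits were shifted by 0.2 and the state margin set to 0.75. No doublet caller was run. The filter of the authors on gene number took out extreme cells, and barcodes with markers of more than 1 lineage stayed out.

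UMIs were summed per class and library and given per 1000000 UMIs of the class, with exact Poisson, exact binomial and exact conditional binomial intervals of 95%. With 1 library per genotype there is no test. Ratios needed 20 UMIs over both libraries and were read against 1.5-fold between libraries, or 2-fold in both libraries between classes. Shares of cells were taken after thinning to 4500 UMIs with seed 7, which all cells reached. A count of 0 was given a limit of 3 counts. Free RNA was taken from droplets with at most 100 UMIs, and its share of a class as the lowest ratio over 3 genes of another lineage. Named pathway genes were the 2 highest and 2 lowest ratios per class among those with 50 UMIs in each library. In macrophages Gstp1, Prdx6, Maff, Slc40a1 and Slc3a2 were named outside this rule. Similar genes were ranked by Pearson r of log2(CPM + 1) over groups of at least 20 cells, among genes that reached 20 CPM in 1 of them. The ratio code was tested on simulated data. Gene positions are from GENCODE M21. Python 3.11.15, NumPy 2.4.6, SciPy 1.17.1 and pandas 2.3.3 were used. The alternatives are described in the closing section. Results for 1 macrophage state are not reported here.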

Additional observations from a re-analysis of the deposited data

Results flagged for a closer look

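Slc7a11 had ratios of opposite direction past 1.5-fold in different classes. The log2 ratio of Siah2-/- over WT was 1.72 in macrophages, 2.13 in lymphoid cells and -0.68 in CD45- cells. The difference between the classes was not tested. The lymphoid value rested on 5 and 40 UMIs near the level of free RNA and is not read as a direction in lymphoid cells. The CD45- value rested on 171 and 17 UMIs with an interval from -1.49 to 0.04, and turned to 0.20 with thinned cells.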

How the results depend on the processing

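No paired analysis was possible because there was 1 library per genotype, and no library could be left out. In macrophages the log2 ratio stayed between 1.25 and 1.81 for Slc7a11, between 0.41 and 0.75 for Hmox1 and between -0.42 and -0.33 for Nfe2l2 over the 11 alternatives. The count of macrophage members past 1.5-fold was 1 of 10, beside 18.9% of all genes. It became 3 of 10 (18.9% of all genes under the same setting) with ratios centred on the median of all genes, 3 of 9 (20.6%) with thinned cells, 4 of 10 (21.2%) with each cell weighted the same, 2 of 9 (18.9%) with the stricter gate, 4 of 10 (19.0%) without the top cell of each gene, 3 of 10 (20.3%) after subtraction of free RNA and 2 of 10 (14.8%) with the same state weights. The added members were Srxn1, Hmox1 and Nqo1, in differing sets. All 3 lay near the limit, and Nqo1 rested on 9 and 14 UMIs. The median member log2 ratio in macrophages moved from 0.18 to 0.0235 with the WT minimum of 6670 UMIs per cell in both libraries and to 0.016 with the same state weights. In lymphoid cells the count went from 2 of 9 (17.5%) to 1 of 8 (20.6%) with thinned cells, where Slc7a11 had no WT UMI. In CD45- cells it went from 2 of 10 (22.8%) to 5 of 10 (28.0%) with thinned cells, to 1 of 10 (19.8%) with each cell weighted the same, to 1 of 10 (20.2%) with the stricter gate and to 3 of 10 (23.7%) without the top cell, and the Slc7a11 ratio there turned to 0.20 with thinned cells. In DC it went from 2 of 7 (28.7%) to 3 of 7 (28.6%) with the WT minimum of UMIs and to 3 of 9 (41.3%) with no minimum of summed UMIs. Hmox1 in monocyte-like cells turned from 0.69 to -0.11 with the stricter gate. Of 899 single-gene ratios over the classes, states and alternatives described, 851 stayed within the counting interval of the reported value. Some of these alternatives could barely move a member ratio, namely no minimum of summed UMIs, all cells of the raw count table and the counts of the matrices. The 851 therefore overstates how stable the ratios were. In 49 of the 899 ratios the sign differed from the reported value, and in 46 of these the reported interval included 0. The other 3 were all under the stricter gate, namely Hmox1 in monocyte-like and in Mgl2 and MHC class II cells (-0.10) and Prdx1 in DC (0.29). The counts of members past 2-fold between macrophages and lymphoid or CD45- cells were the same with the stricter gate, thinned cells and, in an alternative chosen after seeing the data, subtraction of free RNA. Where not stated, the cause of a change was not tested.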
